A study of Mus musculus with 48 samples.

Results

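The 36 genes described here are an interferon-stimulated antiviral set, taken from the 32544 genes of a raw count table by gene symbol from a fixed list. All 36 were in the table and all 36 passed the filters on low counts. RNA was sequenced from the tibial metaphysis, the flared end of the shin bone next to its growth plate, of males at 19 weeks of age, from 5 laboratory strains (C57BL/6J, A/J, 129S1/SvImJ, NZO/HlLtJ and NOD/ShiLtJ) and 3 wild-derived ones (WSB/EiJ, PWK/PhJ and CAST/EiJ). A cast kept each mouse's left hindlimb from moving for 3 weeks (immobilized), and its right hindlimb stayed free (control), which gave 48 libraries in 16 groups of 3. Every cast was on the left, so casting and body side cannot be told apart, and the control limb comes from an animal that carried a cast. No group carried a transgene, a deletion or a drug treatment by the labels. The mice of a strain are genetically alike, and nothing in the labels says whether they shared a litter or a cage, so p-values measure the spread between these mice.

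Interferons are secreted proteins that cells release when they sense foreign nucleic acid. Type I interferons bind the receptor chains Ifnar1 and Ifnar2, whose kinases activate STAT proteins, among them Stat2. Stat2 acts with Irf9 in a complex that binds the interferon-stimulated response element, a short promoter sequence, and switches on a broad antiviral program that includes RNA sensors, enzymes that degrade or trap viral RNA, and the ubiquitin-like protein Isg15. The program runs at a low tonic level without infection. In bone and marrow it is known to restrain osteoclast formation and to act on blood stem cells.

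The response element has a core of a pair of GAAA boxes held apart by a short gap. The promoters printed below were chosen from members that hold the letters of this core. RefSeq promoters (GRCm38.p6, 250 bases before to 50 bases after the transcript start) matched 26 of the 36 genes. The motif GAAANNGAAA, searched on both strands with N as any base, was in 13 of these 26 genes and in 3.99% of all 27025 genes (3.44% of 32851 promoters of that length). The longer form GAAANNGAAACT, each match of which contains the shorter one, was in 7 of the 26 genes (26.9%). It was in 0.271% of the 32851 promoters, and its share of all genes was not counted. The genes with the shorter motif were Stat2, Ddx58, Ifih1, Oas1a, Oas3, Ifit1, Ifit3, Ifit3b, Isg15, Trim30a, Rsad2, Eif2ak2 and Bst2. Matched genes without it were Irf7, Irf9, Oasl1, Oasl2, Ifit2, Herc6, Dtx3l, Cmpk2, Xaf1, Sp100, Ifi44, Ifi35 and Lgals3bp. The other 10 members had no promoter entry and were not searched: Dhx58, Zbp1, Oas2, Usp18, Parp9, Parp14, Mx1, Mx2, Ifi27l2a and Rtp4. A match says only that these letters are present. Each window runs 5′ to 3′ on the gene's own strand, from 250 bases before the start to 20 bases after it, with matches in capitals; on the opposite strand a match reads TTTCNNTTTC.
Isg15 (chr4:156200799-156201068, minus strand): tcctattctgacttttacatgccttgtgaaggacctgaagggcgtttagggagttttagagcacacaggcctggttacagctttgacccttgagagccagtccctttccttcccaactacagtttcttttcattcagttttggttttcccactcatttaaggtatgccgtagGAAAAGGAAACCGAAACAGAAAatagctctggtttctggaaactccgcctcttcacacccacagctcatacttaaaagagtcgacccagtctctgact
Oas1a (chr5:120907506-120907775, minus strand): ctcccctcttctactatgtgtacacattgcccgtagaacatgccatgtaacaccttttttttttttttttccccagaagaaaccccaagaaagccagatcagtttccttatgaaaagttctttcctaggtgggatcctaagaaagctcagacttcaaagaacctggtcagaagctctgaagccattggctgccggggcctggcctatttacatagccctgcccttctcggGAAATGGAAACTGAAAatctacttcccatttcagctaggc
Stat2 (chr10:128270248-128270517, plus strand): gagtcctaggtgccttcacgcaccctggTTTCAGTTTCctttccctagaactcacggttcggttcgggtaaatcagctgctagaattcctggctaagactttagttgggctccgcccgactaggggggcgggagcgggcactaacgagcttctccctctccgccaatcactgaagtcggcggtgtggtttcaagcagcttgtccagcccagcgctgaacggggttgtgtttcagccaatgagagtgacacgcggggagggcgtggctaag
Ddx58 (chr4:40239806-40240075, minus strand): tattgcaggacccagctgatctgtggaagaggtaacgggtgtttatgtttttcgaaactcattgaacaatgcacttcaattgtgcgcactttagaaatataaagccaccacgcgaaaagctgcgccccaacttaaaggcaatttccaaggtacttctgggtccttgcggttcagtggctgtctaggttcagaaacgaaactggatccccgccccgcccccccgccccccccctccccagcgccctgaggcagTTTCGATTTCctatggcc
Ifit3 (chr19:34583279-34583548, plus strand): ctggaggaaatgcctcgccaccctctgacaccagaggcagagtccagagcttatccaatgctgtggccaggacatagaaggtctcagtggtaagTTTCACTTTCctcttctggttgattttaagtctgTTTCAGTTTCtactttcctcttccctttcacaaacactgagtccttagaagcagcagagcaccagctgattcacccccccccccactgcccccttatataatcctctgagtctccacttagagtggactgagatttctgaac
Ifit3b (chr19:34607707-34607976, plus strand): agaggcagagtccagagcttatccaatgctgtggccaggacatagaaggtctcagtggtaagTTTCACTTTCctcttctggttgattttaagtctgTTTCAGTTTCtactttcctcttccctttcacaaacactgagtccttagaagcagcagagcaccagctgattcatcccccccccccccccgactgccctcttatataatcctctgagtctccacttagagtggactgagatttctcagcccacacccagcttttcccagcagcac

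In Isg15 the capitals cover 3 overlapping matches, whose first bases lie 78, 72 and 66 bases before the start. Oas1a holds 2 overlapping matches that begin 20 and 14 bases before the start. The single Stat2 match lies far out, 222 bases before the start, and that of Ddx58 begins at base 3 of the transcript. Ifit3 and Ifit3b, neighbouring copies on chromosome 19, each hold 2 matches on the opposite strand. In an alignment of their 300-base promoters, 259 of the 260 bases aligned without a gap were identical (99.6%). Bases opposite a gap were not counted.

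Total counts in 46 libraries ranged from 5253408 to 14744056 with a median of 7593532.5, of which the 36 genes took 0.0573% to 0.153%. The control libraries of A/J replicates 2 and 5 held 2335 and 50 counts and were left out, so A/J has 1 control library and its limb effect rests on 1 mouse. Tests of the A/J limb effect and of its control level therefore borrow the spread of the other strains. Their p-values do not measure a spread between A/J mice. The NZO/HlLtJ immobilized libraries were deeper (13410118 to 14744056) than the controls of that strain (7746981 to 7857780). Bone markers were present in all libraries, with summed levels of 8 osteoblast markers from 4608 to 267200 CPM (counts scaled to library size), and so were skeletal muscle markers, with summed levels of 15 of them from 26.5 to 76090 CPM. The NZO/HlLtJ control library of replicate 4 stood apart: 9 erythroid markers summed to 552 CPM in it, against 102900 and 61480 in replicates 5 and 6, 10 neutrophil markers to 3300 CPM against 35130 and 37540, and osteoblast markers to 44120 CPM against 4608 and 15080. Levels below are CPM scaled by edgeR's TMM factors. A difference is given in log2 units with its standard error, and was called at an edgeR quasi-likelihood false discovery rate (FDR) under 0.05 over all genes tested.

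Most members differed in level among the strains. In control limbs 33 of 36 genes differed among the 8 strains by edgeR's F test, against 40.6% of all 16493 genes tested, and in immobilized limbs 32 of 36 did, against 50.3% of 15478. The 3 not called in control limbs were Rsad2 (FDR 0.597), Sp100 (FDR 0.104) and Ifi35 (FDR 0.215). C57BL/6J had the highest control mean for 15 genes, PWK/PhJ for 12 and NZO/HlLtJ for 8, while CAST/EiJ had the lowest for 20. The same was not counted over all genes, so these counts cannot set the members apart from other genes. These are bulk libraries, in which fewer cells of a type and less RNA per cell cannot be told apart. Reads were placed on mm10, which is C57BL/6J sequence by origin, and the part that mismatches in other strains play in a level was not tested.

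**Figure D1:**
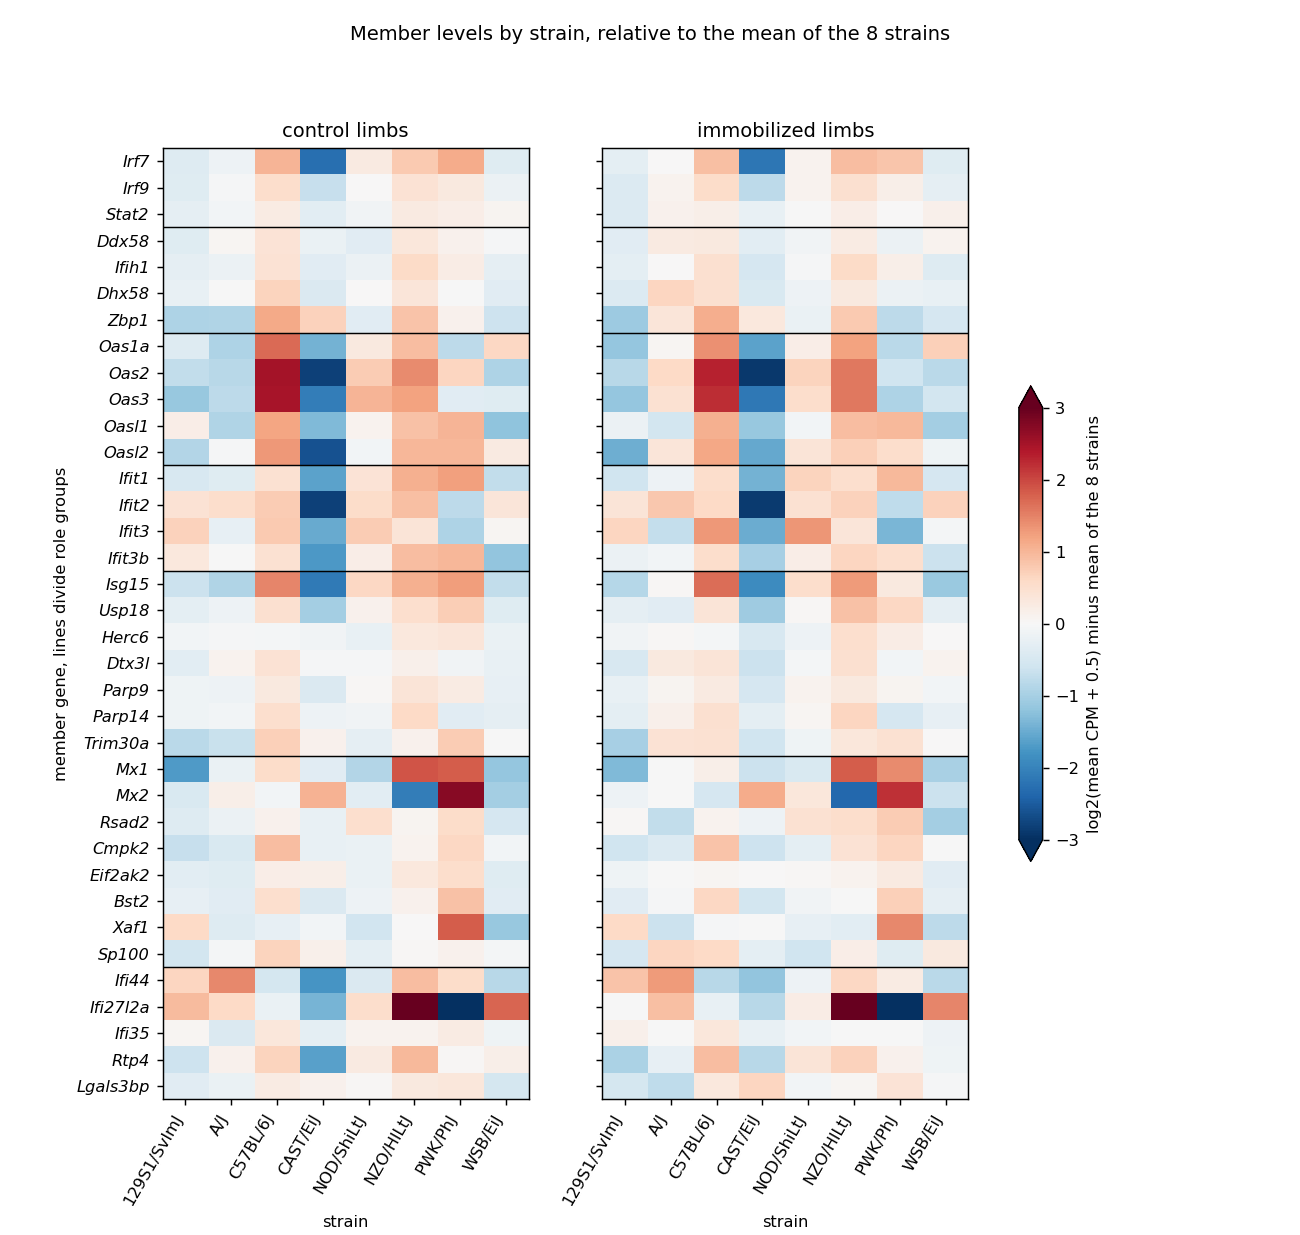
Heat map of the 36 genes (rows, by role) in the 8 strains (columns), control limbs on the left and immobilized limbs on the right; colour is log2(mean CPM + 0.5) minus the mean of the 8 strains for that gene and limb, held at 3 either way. The CAST/EiJ column is mostly below the mean and the C57BL/6J column mostly above it in both limbs, while Mx2 is low in NZO/HlLtJ and high in PWK/PhJ.

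When each strain was set against the mean of the other 7 in control limbs, CAST/EiJ had 19 members lower and 2 higher (9.57% and 13.1% of all genes). C57BL/6J had 0 lower and 20 higher (3.0% and 5.83%), NZO/HlLtJ 1 lower and 18 higher (0.976% and 3.63%), and PWK/PhJ 3 lower and 15 higher (6.55% and 10.1%). The other strains had fewer: 129S1/SvImJ 5 lower and 1 higher (1.45% and 5.04%), WSB/EiJ 5 and 2 (2.33% and 4.2%), and NOD/ShiLtJ 2 and 4 (1.67% and 9.15%). A/J, with 1 control library, had 0 called by edgeR (0.297% lower and 1.39% higher), 2 lower and 2 higher at an unadjusted p under 0.05 (5.64% and 8.8% of all genes), and 1 called by DESeq2. The median log2 difference of the 36 genes was 0.63 in C57BL/6J, 0.58 in NZO/HlLtJ, 0.38 in PWK/PhJ, 0.04 in NOD/ShiLtJ, −0.20 in A/J, −0.36 in 129S1/SvImJ, −0.37 in WSB/EiJ and −0.50 in CAST/EiJ. Without NZO/HlLtJ replicate 4 the members called, in both directions together, numbered 14 in 129S1/SvImJ, 2 in A/J, 23 in C57BL/6J, 21 in CAST/EiJ, 7 in NOD/ShiLtJ, 15 in NZO/HlLtJ, 21 in PWK/PhJ and 10 in WSB/EiJ, and the F test called 35. Shares of all genes in that fit are not given here. The 8 comparisons share libraries, since each strain is part of the reference for the others.

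Among the signalling and transcription factors, Irf7, the factor that amplifies interferon production, spanned the strains widely. Its control libraries read 3.59, 3.76 and 3.29 CPM in CAST/EiJ, against 37.7, 44.4 and 35 in C57BL/6J and 52.3, 35.4 and 36.7 in PWK/PhJ. The 3 CAST/EiJ libraries lay below every other control library, and the difference from the other 7 strains was −2.75. All 3 genes of this group, Irf7, Irf9 and Stat2, were lower in CAST/EiJ. Stat2, the partner of Irf9, had the narrowest range of strain means of all 36 genes: its control means ran from 38.1 ± 4.1 CPM (SD, n = 3) in CAST/EiJ to 57 ± 7.5 in NZO/HlLtJ, a range of 0.58 on the log2(mean CPM + 0.5) scale. Herc6, the main ISG15 ligase of the mouse, and Dtx3l, a ubiquitin ligase that pairs with Parp9, came next with ranges of 0.59 and 0.75 on that scale.

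The oligoadenylate synthetases (OAS) make the second messenger that activates the RNA-degrading enzyme RNase L. Oas2 (chr5:120730333-120749853) had the widest range of control strain means among the 35 genes with counts in every strain, 5.28 on the log2(mean CPM + 0.5) scale. It read 34.6, 27.9 and 29.5 CPM in the C57BL/6J controls and 0.116, 0.459 and 0.337 CPM in the CAST/EiJ controls, where a few counts per library carry the value. The first 3 lay above, and the second 3 below, every other control library. Against the other 7 strains Oas2 was higher in C57BL/6J by 3.14 ± 0.28 (edgeR FDR 8.42e-07) and lower in CAST/EiJ by −4.33 ± 0.51 (edgeR FDR 8.95e-06). NZO/HlLtJ controls read 15.4, 16.7 and 10.8 CPM, all above the 7.14, 8.31 and 9.07 of PWK/PhJ, and the NZO/HlLtJ difference from the other 7 was 1.90 ± 0.30 (edgeR FDR 0.000645), or 1.86 without replicate 4.

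All 5 OAS members were higher in C57BL/6J and all 5 were lower in CAST/EiJ. Oas3 read 55.8, 59.3 and 51.5 CPM in the C57BL/6J controls, a difference of 2.93 ± 0.34 (edgeR FDR 2.22e-05), and 1.62, 2.39 and 1.69 in CAST/EiJ. Oas1a read 26.1, 22 and 26.9 CPM in C57BL/6J, 2.03 ± 0.32 above the rest (edgeR FDR 0.000566), and 2.66, 2.02 and 2.70 in CAST/EiJ. The Oas1a count is uncertain: 57.6% of its 50-base words also occur in its neighbour Oas1g. Oasl2, an OAS-like protein, read 43.7, 48 and 40.7 CPM in C57BL/6J controls and 2.43, 2.75 and 2.19 in CAST/EiJ, where it was lower by −3.20 ± 0.36 (edgeR FDR 4.79e-06). Oasl1, which restrains Irf7 translation, was among the scarcest members per kilobase and read 0.946, 0.266 and 1.03 CPM in WSB/EiJ, lower by −1.79 ± 0.44 (edgeR FDR 0.0206). That call was lost without WSB/EiJ replicate 4 (edgeR FDR 0.118).

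In NOD/ShiLtJ, Oas2 and Oas3 were called higher. Its control libraries read 16.4, 3.94 and 6.37 CPM for Oas2 and 27.8, 13.1 and 18.7 for Oas3, each highest in replicate 4. The differences from the other strains were 1.10 ± 0.32 for Oas2 (edgeR FDR 0.0305) and 1.25 ± 0.37 for Oas3 (edgeR FDR 0.039). Isg15 was called in the same direction, at 19.4, 12.2 and 16 CPM and 0.79 ± 0.24 (edgeR FDR 0.04). Of 22 fits that each left out 1 control library, the Oas2 call was lost in that without NOD/ShiLtJ replicate 4 (edgeR FDR 0.791). The Oas3 call was lost in 12 and that of Isg15 in 9, with the highest edgeR FDR again without that replicate (0.376 and 0.349). That library was the highest of the 3 for 25 of the 36 genes, and replicate 5 was the lowest for 32.

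IFIT proteins bind viral RNA and block its translation, and the 4 genes lie together at chr19:34550694-34650009. All 4 were lower in CAST/EiJ. Ifit2 was the clearest of them: it read 1.39, 1.74 and 1.26 CPM in CAST/EiJ controls, 7.61, 5.87 and 9.07 in PWK/PhJ, and 15.9 to 26.3 in the other 6 strains. The levels of CAST/EiJ, PWK/PhJ and the remaining strains did not overlap. Against the other 7 strains it was lower by −3.57 ± 0.16 in CAST/EiJ (edgeR FDR 2.07e-11) and by −0.92 ± 0.12 in PWK/PhJ (edgeR FDR 4.24e-05). Since these low strains are in the reference, 129S1/SvImJ at 17.9 to 18.3 CPM was called higher, by 0.58 ± 0.11 (edgeR FDR 0.00389), and WSB/EiJ at 15.9 to 17.9 CPM by 0.46 ± 0.11 (edgeR FDR 0.0162). The WSB/EiJ call was lost without replicate 4 or without replicate 5. Ifit3 and Ifit3b share 51.2% and 45.0% of their 50-base words with other genes, mostly with each other, and are uncertain as single genes.

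Isg15 (chr4:156199424-156200818), a ubiquitin-like protein that is both attached to other proteins and secreted, was also lowest in CAST/EiJ. Control libraries read 38.7, 26.4 and 22.3 CPM in C57BL/6J, 34.2, 14.3 and 26.5 in PWK/PhJ, and 16.1, 31.0 and 18.4 in NZO/HlLtJ. They read 5.80, 5.92 and 7.14 in 129S1/SvImJ, 6.62, 5.98 and 5 in WSB/EiJ, and 2.55, 2.11 and 1.26 in CAST/EiJ. The CAST/EiJ libraries lay below all others, with a difference from the other 7 of −2.68. The levels of C57BL/6J, NZO/HlLtJ and PWK/PhJ overlapped, as did those of 129S1/SvImJ and WSB/EiJ. In the same role group, Trim30a, a TRIM protein that damps innate signalling, was lower in 129S1/SvImJ at 22.7, 13.7 and 31.0 CPM (−0.91 ± 0.24, edgeR FDR 0.0329), and the call was lost without replicate 2 or 3. Parp14, an ADP-ribose transferase, read 38.4, 39.4 and 37.4 CPM in PWK/PhJ and was lower there by −0.43 ± 0.10 (edgeR FDR 0.00504).

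The Mx genes, which encode GTPases that block virus replication, peaked in other strains than the OAS genes. These are RNA levels, and whether each strain makes a working Mx protein was not tested. Mx1 (chr16:97447035-97462907) read 43.4, 37.6 and 30.4 CPM in NZO/HlLtJ controls and 38.8, 35.4 and 31.0 in PWK/PhJ, and these strains overlapped. They were higher than the other 7 by 2.27 ± 0.18 (edgeR FDR 2.35e-07, 2.17 without NZO/HlLtJ replicate 4) and 2.14 ± 0.18 (edgeR FDR 1.73e-07). In 129S1/SvImJ it read 2.17, 2.02 and 3.65 CPM (−2.10 ± 0.26, edgeR FDR 7.01e-05), in WSB/EiJ 4.73, 3.72 and 3.53 (−1.42 ± 0.25, edgeR FDR 0.00136), and in NOD/ShiLtJ 6.64, 2.80 and 5.65 (−1.02 ± 0.24, edgeR FDR 0.00767). The NOD/ShiLtJ call was lost without replicate 5 (edgeR FDR 0.0629). CAST/EiJ, low for most members, read 7.64, 6.97 and 8.01 CPM.

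Mx2 (chr16:97535308-97560900), beside Mx1 and annotated as a polymorphic pseudogene in the mouse reference, separated NZO/HlLtJ from PWK/PhJ. It read 0.227, 0.643 and 0.128 CPM in NZO/HlLtJ controls and 22.5, 18.1 and 28.2 in PWK/PhJ. CAST/EiJ came next at 6.83, 7.07 and 6.33, and the other strains read 1.02 to 3.75. No library of NZO/HlLtJ, CAST/EiJ or PWK/PhJ overlapped another strain. The differences from the other 7 strains were −3.40 ± 0.50 in NZO/HlLtJ (edgeR FDR 0.000361, −3.17 without replicate 4), 3.47 ± 0.29 in PWK/PhJ (edgeR FDR 1.11e-07) and 1.48 ± 0.31 in CAST/EiJ (edgeR FDR 0.00235). Mx1 and Mx2 share 4.37% and 4.38% of their 50-base words with other genes.

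**Figure D2:**
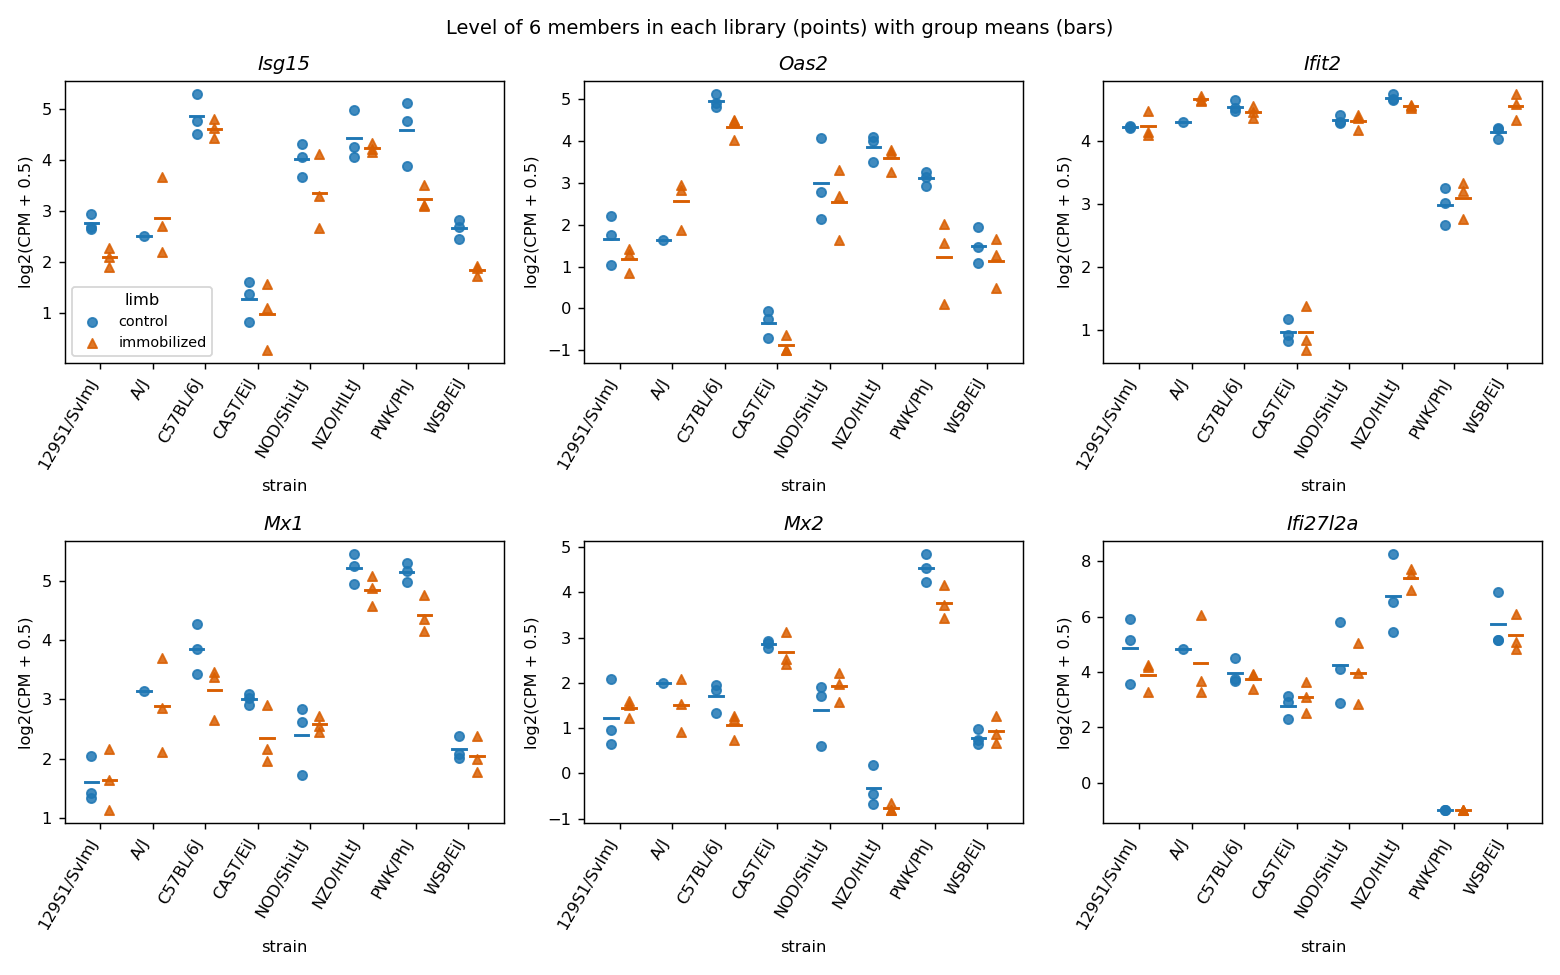
Levels of Isg15, Oas2, Ifit2, Mx1, Mx2 and Ifi27l2a in each library as log2(CPM + 0.5) on the y axis, by strain on the x axis, with control and immobilized limbs in different colours; points are libraries and bars are group means. Oas2 and Ifit2 are lowest in CAST/EiJ, and Mx2 is lowest in NZO/HlLtJ and highest in PWK/PhJ. Ifi27l2a has no count in any of the 6 PWK/PhJ libraries, which are drawn at log2(0.5).

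Ifi27l2a (chr12:103442167-103443680), a small interferon-induced protein, had no count in any of the 6 PWK/PhJ libraries. Against a limit of 3 counts over the PWK/PhJ control group (0.138 CPM), its control mean was at least 47.5-fold higher in CAST/EiJ (7.06, 8.17 and 4.39 CPM) and at least 1063-fold higher in NZO/HlLtJ (306, 90.8 and 42.8 CPM). Replicate 4 carries that last bound, which is 485-fold without it (mean of 66.8 CPM). WSB/EiJ read 34.7, 34.8 and 117 CPM and 129S1/SvImJ 35.5, 59.0 and 11.4, so replicates of one strain differed severalfold. The fitted differences of NZO/HlLtJ (4.14 ± 0.60, edgeR FDR 0.000572, or 3.05 and 0.00936 without replicate 4) and WSB/EiJ (2.72 ± 0.65, edgeR FDR 0.02) contain the PWK/PhJ zeros in their reference. The WSB/EiJ call was lost without replicate 5 (edgeR FDR 0.246).

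Xaf1, a pro-apoptotic partner of the caspase inhibitor XIAP, was high in PWK/PhJ at 57.1, 44.9 and 65.3 CPM, above every other control library (2.09 ± 0.21, edgeR FDR 1.46e-06). It was low in WSB/EiJ at 5.95, 5.45 and 8.82 CPM (−1.38 ± 0.28, edgeR FDR 0.00534). PWK/PhJ had 5 of the 8 antiviral effectors higher, the group that holds Mx1, Mx2 and Xaf1. Of the nucleic acid sensors, all 4 were higher in C57BL/6J and 3 of 4 in NZO/HlLtJ. Zbp1, which senses Z-form nucleic acid, read 4.23, 2.31 and 4.25 CPM in 129S1/SvImJ (−1.13 ± 0.28, edgeR FDR 0.0232) and 11.8, 11.6 and 12.6 in CAST/EiJ (0.83 ± 0.23, edgeR FDR 0.0159), where it stood above the mean of the other strains. The first call was lost without 129S1/SvImJ replicate 2 or 3, and the second when any 1 CAST/EiJ replicate was left out. Ddx58, which encodes the RNA sensor RIG-I, read 31.0, 29.9 and 34 CPM in NOD/ShiLtJ and was lower by −0.36 ± 0.09 (edgeR FDR 0.0106), a call lost without replicate 4 or 5.

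Counted without a test, every CAST/EiJ control library lay below every control library of the other strains for 9 of 36 genes (2.56% of all genes): Irf7, Irf9, Oas2, Oasl2, Ifit2, Ifit3, Isg15, Usp18 and Ifi44. Every C57BL/6J library lay above all others for 6 (1.56% of all genes): Oas1a, Oas2, Oas3, Dtx3l, Cmpk2 and Sp100. In immobilized limbs the CAST/EiJ count was 7 (1.43%) and the C57BL/6J count 4 (0.581%).

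Immobilized limbs of the strains stood in a similar order. They come largely from the mice that gave the control limbs, so this is not an independent repeat. Set against the other 7, CAST/EiJ had 22 members lower and 2 higher (7.49% and 11.1% of all genes), C57BL/6J 0 and 20 (2.44% and 5.31%), NZO/HlLtJ 1 and 19 (2.05% and 4.76%), and PWK/PhJ 5 and 10 (8.02% and 10.7%). 129S1/SvImJ had 11 lower and 4 higher (3.14% and 6.76%), A/J 3 and 6 (4.46% and 9.22%), NOD/ShiLtJ 1 and 5 (6.93% and 12.7%), and WSB/EiJ 3 and 2 (2.84% and 5.21%). Oas2 read 15.9, 22.2 and 21.8 CPM in C57BL/6J, while the 3 CAST/EiJ libraries read 0, 0 and 0.149. Mx2 read 10.3, 12.7 and 17.3 CPM in PWK/PhJ and 0.0674, 0.0698 and 0.136 in NZO/HlLtJ. Ifit2 was again lowest in CAST/EiJ, at 1.09, 1.28 and 2.09 CPM, and next lowest in PWK/PhJ, at 8.73, 9.57 and 6.25.

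The likeness of strain order among members can be described by a correlation. Each gene's 8 strain means were correlated with the median profile of the other 35 genes, points that share libraries and depth. The same was not computed for all genes, so the counts cannot set the members apart from other genes. The A/J control point is 1 library. In control limbs the median r was 0.747, and 29 of 36 genes had an r above 0.5. Parp9 (r = 0.965), Irf9 (r = 0.952), Ifih1 (r = 0.947), Isg15 (r = 0.926) and Oas2 (r = 0.919) were nearest to the common profile over these 8 strains. Ifi27l2a (r = −0.202) and Mx2 (r = −0.0673) were the 2 below 0, and Xaf1 (r = 0.289) came next. In immobilized limbs the median r was 0.763, with 27 genes above 0.5, and the 2 below 0 were Mx2 (r = −0.481) and Xaf1 (r = −0.0147).

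Casting went with lower levels of part of the set. Over 22 mice with both limbs, with strains weighted equally, 9 of 36 genes were lower in the immobilized limb and 0 higher by edgeR, against 2.86% lower and 4.58% higher of 16882 genes tested. At an unadjusted p under 0.05, 14 were lower and 0 higher (9.85% and 13.3% of all genes). DESeq2 called 10 lower, and called 1812 of 16882 genes in either direction. Without the NZO/HlLtJ mouse of replicate 4, edgeR called 10 lower and 0 higher, and 1909 of 16827 genes in either direction. Both totals exceed those of edgeR over all 22 mice, 482 genes lower and 773 higher. Leaving out Ifi27l2a, which was at 0 in PWK/PhJ and has no usable estimate, 31 of 35 estimates were below 0 (48% of all genes), with a median of −0.16 against 0.01 for all genes. The exceptions were Ifit2 (0.08), Dhx58 (0.08), Ifit3b (0.01) and Lgals3bp (0.00), none of which passed the test.

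Of the 9 called genes, 4 belonged to the group of Isg15 and ubiquitin or ADP-ribose enzymes, in which 4 of 7 were lower and all 7 estimates were below 0 (median −0.33). The estimates of all 5 OAS genes, all 8 antiviral effectors and all 3 signalling factors were below 0 as well. So were 3 of 4 sensors, 2 of 4 IFIT genes and 3 of the 4 other induced genes with a usable estimate. Dtx3l (chr16:35926511-35939151) ranged over 23.9, 33.2 and 53.0 CPM (lowest, median and highest) in 22 control libraries and 14.6, 28.4 and 38.7 in 24 immobilized ones. It was lower in 18 of 22 mice, by −0.33 ± 0.06 (edgeR FDR 0.00512). Parp14 (chr16:35832874-35871544), nearby on the chromosome, ranged over 35.1, 46.1 and 79.5 CPM in control limbs and 21.5, 38.3 and 66.3 in immobilized limbs. It was lower in 21 of 22 mice, the exception being NOD/ShiLtJ replicate 5, by −0.33 ± 0.06 (edgeR FDR 0.00591). Dtx3l overlaps its divergent neighbour Parp9 and shares 8.09% of its 50-base words with other genes, so reads could pass between them.

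Usp18, which removes Isg15 from proteins and damps receptor signalling, ranged over 2.45, 6.70 and 13.9 CPM in control and 1.56, 4.65 and 10.3 in immobilized limbs, and was lower in 18 mice (−0.47 ± 0.12, edgeR FDR 0.0249). Isg15 itself ranged over 1.26, 13.3 and 38.7 CPM and 0.711, 7.05 and 27.2 CPM, and was lower in 17 mice (−0.41 ± 0.11, edgeR FDR 0.0335). Its differences by mouse ran from −1.67 in PWK/PhJ replicate 6 to 1.19 in the single A/J mouse. The ranges of the limbs overlap for these genes when strains are pooled, and the test compares limbs within mice. Isg15 was not called in 7 of 22 fits that each left out 1 mouse (highest edgeR FDR 0.0582, without PWK/PhJ replicate 3).

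Among the signalling factors 2 of 3 were lower (median −0.19). Irf9 (27.8, 45.8 and 68.9 CPM in control, 21.3, 38.5 and 58.8 in immobilized limbs) was lower in 20 of 22 mice by −0.18 ± 0.04 (edgeR FDR 0.0249). Stat2 (33.5, 49.9 and 65.5 CPM against 28.2, 41.4 and 58.4) was lower in 19 by −0.19 ± 0.05 (edgeR FDR 0.0284), a call lost without PWK/PhJ replicate 3 (edgeR FDR 0.051). Both shifts were small, and both genes were lower in nearly all mice.

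The remaining calls were 1 in each of the OAS, effector and sensor groups. Oas2 (0.116, 5.24 and 34.6 CPM against 0, 2.93 and 22.2) had the largest estimate, −0.66 ± 0.18 (edgeR FDR 0.0318), and was lower in 19 mice, from −3.16 in PWK/PhJ replicate 3 to 1.40 in the A/J mouse. It was not called in 3 of 22 fits that left out 1 mouse (highest edgeR FDR 0.096, without CAST/EiJ replicate 3). Mx1 (2.02, 7.83 and 43.4 CPM against 1.68, 5.94 and 33.3) was lower in 17 mice by −0.44 ± 0.11 (edgeR FDR 0.0276). Ddx58 (29.0, 41.7 and 53.9 CPM against 20.9, 34.7 and 49.7) was lower in 17 by −0.20 ± 0.06 (edgeR FDR 0.0442), and was not called in 15 of 22 such fits (highest edgeR FDR 0.0749, without NZO/HlLtJ replicate 6). Dtx3l, Parp14, Irf9, Usp18 and Mx1 were called in all 22. With no term for mouse, Mx1 (edgeR FDR 0.151), Stat2 (0.0556) and Oas2 (0.0617) were not called. With a skeletal muscle covariate, described below, Dtx3l and Parp14 alone were called. None of the 4 IFIT genes was called (median −0.01), nor any of the other induced genes (median −0.10 over the 4 with a usable estimate).

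The most abundant members per kilobase that were tested and not called were Lgals3bp, a secreted glycoprotein (0.00 ± 0.08, edgeR FDR 1), Bst2, which tethers virions to the cell surface (−0.04 ± 0.07, edgeR FDR 0.854), Rsad2, the radical enzyme viperin (−0.18 ± 0.21, edgeR FDR 0.69), Sp100, a nuclear body protein (−0.11 ± 0.09, edgeR FDR 0.524), and Ifi35 (−0.13 ± 0.08, edgeR FDR 0.325). Ifi27l2a, the most abundant per kilobase at 83.7 CPM per kb, is the member with no usable estimate.

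**Figure D3:**
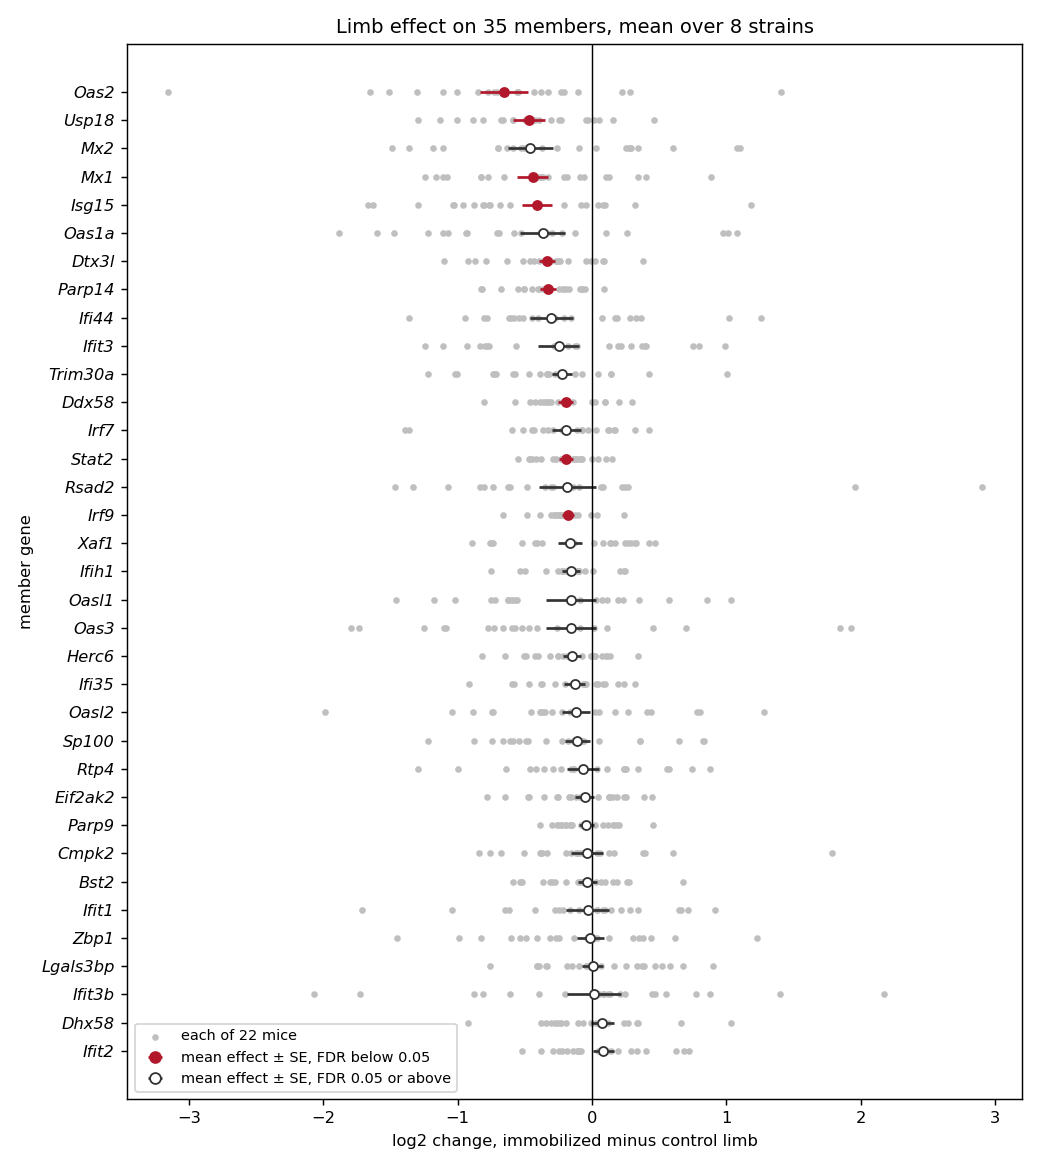
Mean limb effect of 35 genes (Ifi27l2a left out) over 22 mice, immobilized minus control in log2 on the x axis, with bars of ± 1 SE; grey dots are single mice and red marks an FDR under 0.05. The 9 red genes lie between −0.18 and −0.66, and the dots of single mice spread on both sides of 0 for most genes.

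By mouse, the median log2 difference over the 36 genes was below 0 in 19 of 22. It was lowest in PWK/PhJ replicate 3 (−0.806, with 34 of 36 genes lower) and CAST/EiJ replicate 3 (−0.565, 31 of 36). Of all genes, 51.64% and 55.95% were lower in these 2 mice, with medians of −0.0275 and −0.0544. The 3 mice above 0 were the A/J mouse (0.134), WSB/EiJ replicate 5 (0.0773) and NOD/ShiLtJ replicate 5 (0.0558). Mice of one strain differed: the CAST/EiJ values were −0.0846, −0.565 and −0.0877, and those of NZO/HlLtJ were −0.195, −0.346 and −0.0529. The 36 values behind each median come from 1 pair of libraries and are not independent.

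**Figure D4:**
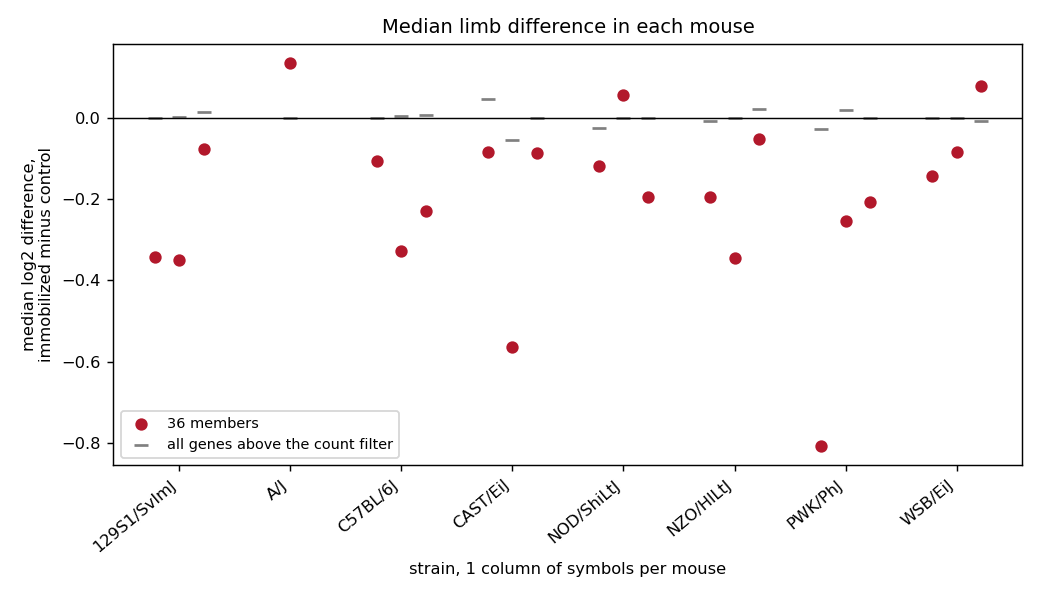
Median over the 36 genes of the log2 difference between the immobilized and control limb in each of 22 mice (points, y axis) by strain (x axis); dashes mark the median over all genes tested in that mouse. In 19 of 22 mice the point is below 0, and PWK/PhJ replicate 3 is lowest at −0.806.

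Within single strains few members were called. In CAST/EiJ 4 were lower and 1 higher (5.47% and 8.38% of all genes). Dtx3l read 31.6, 30.8 and 35.8 CPM in its control limbs and 14.6, 17.8 and 18.8 in the immobilized limbs of the same mice, a drop without overlap (−0.94 ± 0.15, edgeR FDR 0.000996). Trim30a read 38.9, 40.7 and 49.2 CPM against 19.1, 17.3 and 29.4 (−1.0 ± 0.19, edgeR FDR 0.00233). Herc6 read 15.4, 20.2 and 21.2 CPM against 10.8, 12.8 and 15.1 (−0.56 ± 0.17, edgeR FDR 0.0356). Both fell in all 3 mice.

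Parp14 went from 46.5, 44 and 41.4 CPM to 29.1, 37.8 and 29.1 in CAST/EiJ (−0.47 ± 0.15, edgeR FDR 0.0489). Oasl2 moved the other way, from 2.43, 2.75 and 2.19 CPM to 4.37, 4.97 and 5.67, without overlap (1.02 ± 0.31, edgeR FDR 0.0347). All 4 lower genes are of the group of Isg15 and ubiquitin or ADP-ribose enzymes, whose 7 estimates were all below 0 in this strain (median −0.55). The estimates of all 8 antiviral effectors, all 4 sensors and all 3 signalling factors were also below 0 in CAST/EiJ. So were 4 of 5 OAS genes, 1 of 4 IFIT genes and 1 of 5 other induced genes. In total 28 of 36 estimates were below 0 in this strain, with a median of −0.24 against −0.0075 for all genes. The share of all genes below 0 in CAST/EiJ is not given here, and these estimates rest on 3 mice. With any 1 CAST/EiJ mouse left out, 2 members were called, and Herc6 and Oasl2 were not among them. Parp14 was not called in 15 of 22 fits that left out 1 mouse.

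In PWK/PhJ 2 members were called, both lower, against 0.0533% lower of all genes. Oas2 read 7.14, 8.31 and 9.07 CPM in control limbs and 0.582, 2.47 and 3.53 in immobilized limbs (−1.98 ± 0.36, edgeR FDR 0.0428). Isg15 read 34.2, 14.3 and 26.5 CPM against 10.9, 8.03 and 8.16 (−1.40 ± 0.26, edgeR FDR 0.0498). The limbs did not overlap for either gene, and both fell in all 3 mice. The calls were lost without PWK/PhJ replicate 3 (edgeR FDR 0.712 and 0.75) and without the term for mouse (0.252 and 0.208). Over all 22 fits that left out 1 mouse, most of them a mouse of another strain, the Oas2 call was lost in 16 and the Isg15 call in 18. At an unadjusted p under 0.05, 15 members were lower and 0 higher in this strain (4.83% and 7.41% of all genes).

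edgeR called 0 members in the other 6 strains, where it called 0.0% of all genes in 129S1/SvImJ, 3.99% in A/J, 8.33% in NOD/ShiLtJ and 0.00592% in each of C57BL/6J, NZO/HlLtJ and WSB/EiJ, and DESeq2 called 1 member, in A/J. Members lower and higher at an unadjusted p under 0.05 numbered 8 and 0 in 129S1/SvImJ (1.8% and 2.74% of all genes), 6 and 0 in C57BL/6J (1.64% and 3.23%), 2 and 0 in NOD/ShiLtJ (10.8% and 13.3%), 1 and 0 in NZO/HlLtJ (1.11% and 1.06%), 3 and 2 in WSB/EiJ (3.35% and 3.08%), and 3 and 7 in the 1 A/J mouse (11.6% and 13.4%). The number of estimates below 0 ran from 15 of 36 in A/J (49.7% of all genes) to 32 in PWK/PhJ (50.6%).

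Whether the limb effect differed among strains was tested directly. edgeR's F test called 0 of 36 members, against 2.5% of all genes. It gave 9 at an unadjusted p under 0.05, and DESeq2 called 6 (Dtx3l, Isg15, Oas2, Oasl2, Sp100 and Trim30a). Shares of all genes for these counts are not given here. Without single mice edgeR called 0 to 2, among Isg15, Oasl2 and Trim30a. The smallest p-values were those of Trim30a (edgeR FDR 0.0576), which went up in the A/J mouse from 24.8 to 50.1 CPM and down in CAST/EiJ, Oas2 (edgeR FDR 0.0967) and Oasl2 (edgeR FDR 0.0979).

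Other genes of the pathway were taken from lists that hold no member. Of 21 interferon genes in the table, 12 had no count in the 46 libraries, no library had more than 8 counts for any of them, and none passed the filter. None of 6 receptor genes was called for the mean limb effect: Ifnar1 (−0.01 ± 0.06), Ifnar2 (−0.02 ± 0.05) and Il10rb (−0.01 ± 0.05) were near 0, and Ifngr1 stood at 0.14 ± 0.05 (edgeR FDR 0.128), Ifngr2 at 0.11 ± 0.06 and Ifnlr1 at −0.22 ± 0.16.

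Among 6 regulatory factors, Irf4, a lymphoid factor of B and plasma cells, was lower in immobilized limbs (−0.73 ± 0.13, edgeR FDR 0.00569). None of 13 sensors and adaptors was called, and none of 6 genes listed as inhibitors, among which Uba7 activates Isg15 rather than restraining the pathway. Of 32 further induced effectors, Ifitm2, which blocks viral entry, was higher (0.39 ± 0.06, edgeR FDR 0.00305), and Helz2 (−0.22 ± 0.06, edgeR FDR 0.033) and Oas1g (−0.85 ± 0.24, edgeR FDR 0.0378) were lower. In the fits that each left out 1 of 22 mice, Helz2 was not called in 8 and Oas1g in 12 (highest edgeR FDR 0.0614 and 0.108). Neither was called without the term for mouse (0.0547 and 0.159) or with the muscle covariate (0.159 and 0.0871).

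Markers of several cell types moved with the limb, and their part in the result was not tested beyond the muscle covariate. Of 15 skeletal muscle markers 12 were lower in immobilized limbs (median −2.13), with summed levels of 73.8 to 76090 CPM in control and 26.5 to 26000 in immobilized limbs. The muscle covariate was the mean log2 CPM of these markers in each library, not their sum. With it added to the paired edgeR fit, 2 of the 9 members, Dtx3l and Parp14, were still called. The edgeR FDR of the other 7 lay between 0.0622 (Usp18) and 0.234 (Oas2). The estimates of the 9 genes in that fit ran from −0.17 (Stat2) to −0.56 (Usp18). The median of the 36 genes was −0.17 there, against 0.02 for all genes, and 29 estimates were below 0. The 11 B cell markers had a median difference of −0.61, with sums of 100.6 to 742.3 CPM in control and 77.03 to 561.2 in immobilized limbs. Of 9 markers of plasmacytoid dendritic cells, the strongest interferon producers, 2 were lower (Cox6a2 and Spib, median −0.15), with sums of 215.5 to 830.3 CPM against 183.9 to 361.3. The highest of these sums, 830.3 CPM, was in NOD/ShiLtJ control limbs, the group that also held the highest muscle sum, 76090 CPM. Whether Cox6a2 and Spib reflect plasmacytoid cells or the muscle and B cells that also moved was not tested. Osteoblast markers were higher in 6 of 8 cases (median 0.73, sums of 4608 to 106100 CPM against 7483 to 267200) and osteoclast markers in 5 of 6 (median 0.84). Of 10 macrophage markers 1 was higher, Vsig4, and none was called among monocyte, neutrophil, T and NK cell, erythroid, megakaryocyte, endothelial and adipocyte markers. No marker of these lists was at 0 in every library.

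Some of these sums also followed strain in control limbs. The mean B cell sum was 566.5 CPM in CAST/EiJ and 507.4 in PWK/PhJ, against 196.9 to 226.8 in the other strains. Monocyte markers summed to 1690 CPM in C57BL/6J, against 454.1 to 1010 elsewhere. The mean muscle sum was 39870 CPM in NOD/ShiLtJ and 476.3 in WSB/EiJ. The part of these differences in the strain levels of the 36 genes was not tested.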

How the data were processed

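Per the labels' protocols, bone was flash frozen, RNA was extracted with Qiagen columns, and stranded mRNA libraries were sequenced paired-end on a NovaSeq. The deposited table holds raw counts per gene; the submitters' processing notes name mm10, featureCounts and DESeq2, and the aligner, annotation and strand setting were not given in the sources used here. Groups came from the sample labels. The counts were fitted with edgeR 4.0.16 (TMM, filterByExpr, robust quasi-likelihood test) in R 4.3.3 with limma 3.58.1, and p-values were adjusted by Benjamini-Hochberg over all genes. Limb effects used a term for each of 22 mice and a limb term per strain. Strains were compared in 22 control and 24 immobilized libraries separately. Log2 CPM used a prior count of 2. Analysis scripts were tested on simulated data.

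Limbs are paired because the design gives both from one mouse. The deviations of paired limbs from their group means over 16912 genes had a median correlation of 0.0894 in 21 mice (−0.26 to 0.547), above 0.1 in 10. Named genes were members past the FDR for a limb effect with the 5 most abundant not past it, up to 3 per strain and direction among strain calls, the widest and narrowest strain ranges, and the 3 smallest interaction p-values; Irf7, the other OAS genes, and genes in the correlation and overlap counts were added after their values were seen. Members and lists were chosen with earlier results of these data known. Alternatives were RLE size factors, DESeq2 1.42.0, no filter, no replicate block, all 48 libraries, both limbs in one fit, a muscle covariate, and leaving out each replicate. Some results of the pathway and marker lists are not reported here. Gene positions are GENCODE on GRCm38.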

Additional observations from a re-analysis of the deposited data

How the results depend on the processing

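Under RLE size factors all 9 genes with a lower mean in immobilized limbs were called, and DESeq2 called those 9 and 1 more. The count was 8 without a filter, 6 with no replicate block (without the mouse pairing), 7 with all 48 libraries, and 2 with the muscle covariate and the replicate block. Without single mice it ran from 6 to 12 (11 without the A/J mouse). Over these alternatives the genes called in either direction also varied, from 730 of 25117 without a filter to 2803 of 15948 without the A/J mouse. Within strains, members called changed with DESeq2 in A/J (0 to 1), without a filter in CAST/EiJ (5 to 3), and with no replicate block in CAST/EiJ (3) and PWK/PhJ (0). Leaving out single mice gave 2 to 6 in CAST/EiJ and 0 to 2 in PWK/PhJ, where the count changed in 18 of 22 fits. The test of limb effects among strains gave 6 with DESeq2, 1 with all 48 libraries, and 0 to 2 without single mice. Strain F tests gave 30 to 35 in control and 31 to 34 in immobilized limbs without single libraries. Against the other strains in control limbs, DESeq2 called 11 in 129S1/SvImJ, 1 in A/J and 12 in WSB/EiJ, and in immobilized limbs 9 in WSB/EiJ; A/J had 1 with both limbs in one fit and 1 with all 24 control libraries. Without single libraries, the counts in control limbs were 2 to 14 in 129S1/SvImJ (2 without its replicate 2 or 3, 11 without A/J replicate 1, 14 without NZO/HlLtJ replicate 4), 0 to 2 in A/J (2 without NZO/HlLtJ replicate 4), 12 to 23 in C57BL/6J (13 without its replicate 4, 12 without 6), 16 to 22 in CAST/EiJ, 2 to 7 in NOD/ShiLtJ (2 without its replicate 4), 13 to 21 in NZO/HlLtJ, 15 to 21 in PWK/PhJ and 4 to 10 in WSB/EiJ (4 without its replicate 4). In immobilized limbs they were 4 to 19 in 129S1/SvImJ (4 without its replicate 2, 7 without 3), 3 to 9 in A/J (3 without its replicate 1, 5 without 2), 13 to 21 in C57BL/6J (13 without any one of its own), 14 to 25 in CAST/EiJ (14 without its replicate 3), 2 to 8 in NOD/ShiLtJ (2 without its replicate 4 or 6), 15 to 21 in NZO/HlLtJ, 11 to 17 in PWK/PhJ and 2 to 7 in WSB/EiJ (2 without its replicate 2 or 4). Fits that leave out a library have fewer samples; elsewhere the cause was not tested. In no alternative run did a called mean limb effect of a member change direction. Estimates below 0 numbered 29 to 34 of 36, and 9 members, none of them called, changed sign in at least 1 alternative (Lgals3bp ran from −0.03 to 0.11 without single mice). A/J has no second control library, so its limb effect has no replicate check, and members near 1 CPM rest on few counts.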
